A study of Homo sapiens with 30 samples.

Results

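La and the La-related proteins (LARPs) are a family of RNA-binding proteins, and the mRNAs of 7 of its genes were followed here: LARP6, LARP1, LARP1B, LARP4, LARP4B, LARP7 and SSB, which encodes La itself. They were chosen by name, as 7 of 62750 gene identifiers in the files. A binding peak was given to one of them when its centre lay inside the gene on the same strand. The peaks came from iCLIP, which maps RNA bases crosslinked to a protein by ultraviolet light, of myc-tagged LARP6 in U-87 MG, an established human glioblastoma cell line. The question was whether LARP6 contacts its own mRNA and those of its relatives, and how this differs once regions of LARP6 are removed.

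The series held 30 samples of 6 lines: parental U-87 MG, and lines with full-length LARP6 (FL) or with deletions of the N-terminal region (ΔNTR), the C-terminal region (ΔCTR), the La-module (ΔLa-module), or the N-terminal region and La-module together (ΔNTD). The labels gave doxycycline at 60 ng/mL for 24 h for all of them, parental cells included. The variants were codon-optimised, carried the myc tag at the N-terminus and were brought in by lentivirus with puromycin selection, and the cells' own LARP6 gene was left in place. The 18 iCLIP samples were 3 per line, and reached the files as 1 pooled peak list per variant from which the peaks of parental cells had been subtracted. The 6 paired-end libraries of long total RNA (PE150) were 1 per line, with 25027075 to 28692476 counts in genes. No value below therefore has a replicate error or a p-value. Intervals are 95% and cover counting error only.

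Of the markers looked up for the label, VIM stood at 7039 to 8004 CPM (counts scaled to library size), CD44 at 2083 to 2336, EGFR at 323 to 395 and NES at 52.0 to 57.8 over the 6 lines. The astrocyte markers GFAP and S100B were at or near 0, with at most 0.240 and 0.120 CPM. Markers of leukocytes, endothelium, epithelium, neurons and oligodendrocytes (PTPRC, PECAM1, EPCAM, RBFOX3 and MBP) did not exceed 3.88 CPM.

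All members share the La-motif, which in most of them lies beside an RNA recognition motif and forms with it the La-module. La binds the 3' ends of new RNA polymerase III transcripts, and LARP7 is the stable partner of the 7SK RNA. LARP1 binds the cap and the 5' terminal oligopyrimidine tract of ribosomal protein mRNAs and links them to mTOR signalling, while LARP4 and LARP4B bind poly(A)-binding protein and stabilise mRNAs. LARP6 is best known for the stem-loop around the start codon of collagen I mRNAs.

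The stretches of RNA on which the results turn are shown first, read from GRCh38 and written 5' to 3' along the transcript as DNA letters. On LARP6 they are the FL peak at the annotated transcription start (chr15:70854145-70854167, minus strand, capitals for the bases annotated as transcribed), a window ending with the start codon (chr15:70854086-70854115, capitals for bases inside the ΔCTR peak) and the FL peak in the coding sequence (chr15:70832682-70832698). On the plus strand of LARP1 they are windows of 3 sites in the 3'UTR: site 1 (chr5:154814193-154814222, all inside the peaks of FL, ΔNTR and ΔCTR), site 2 (chr5:154815550-154815579, all inside a peak of FL only) and site 3 (chr5:154815590-154815619, capitals for bases common to the highest peak of each of these lists). The last are a 3'UTR site of LARP4 (chr12:50476721-50476750, plus strand, capitals for bases common to FL and ΔNTR) and the FL peak at the start codon of LARP7 (chr4:112644662-112644678, plus strand, start codon in capitals).
LARP6 cap site: ccctcgtcgcAGTCGCTGCCGAC
LARP6 start-codon site: CCCGGCGGCGCCGCAGTCCCGcgagccatg
LARP6 coding peak: TCACAGAATCTCAGGGC
LARP1 site 1: CAGGCCTGGAGTTACTAGGACAGGCCTTTG
LARP1 site 2: GCCATTCTCTCCCTAAGGTCTGGTGGAGTC
LARP1 site 3: gCATACCCTTCTGCAAGCCATCTATCTCTg
LARP4 shared site: ttttcttACTCCATTTGTTACTCtctgttc
LARP7 start-codon peak: tcacaggaATGgaaact

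Tagged LARP6 was crosslinked to the 5'UTR of LARP6 mRNA at 2 places in the FL, ΔNTR and ΔCTR lists, one at the cap end and one near the start codon. The listed peak reached the start codon in FL and ΔNTR only. The gene (ENSG00000166173) lies at GRCh38 15:70829130-70854157 on the minus strand, and its canonical transcript has a 5'UTR of 69 nt in the first exon, a coding sequence of 1473 nt without the stop codon and a 3'UTR of 2922 nt. The score of a peak is the authors' sum over 3 replicates, with a minimum of 3 in every list, and was read as a count. Peaks were called in each replicate from 3 counts up, before summing. The ΔCTR peaks here, with scores of 4 and 5, and the ΔNTR peak at the cap end, with 5, can thus each come from only 1 replicate. The intervals take no account of calls lost to this limit. Over the 5'UTR the FL peaks summed to 28 (18.6 to 40.5), the ΔNTR peaks to 17 (9.90 to 27.2) and the ΔCTR peaks to 9 (4.12 to 17.1), and no LARP6 peak was listed for ΔLa-module or ΔNTD. A 5'UTR peak was held by 1 of the 7 members, LARP6, in each of FL, ΔNTR and ΔCTR, against 4.32%, 4.86% and 3.12% of the 11680 protein-coding genes with a mean of at least 1 CPM.

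At the cap site the FL peak scored 11, the ΔNTR peak 5 and the ΔCTR peak 5. All of them straddled the annotated start: the FL peak began 10 nt before it and ended at nt 13 of the transcript. Both deletions stood at 0.455 of the FL score, with intervals of 0.124 to 1.42 that include no difference. The first annotated base was an A, and the longest run of pyrimidines in the 5'UTR was 4 nt, so that a long pyrimidine tract of the kind LARP1 recognises was not present in the annotated sequence. The peaks also take in bases before the annotated start. In windows of 31 nt around their centres the longest run of pyrimidines was 7 nt for FL, ΔNTR and ΔCTR alike.

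The start-codon site had an FL score of 17, a ΔNTR score of 12 and a ΔCTR score of 4. The peaks differed in extent as well as in score. A peak's extent is that of the merged replicate calls, and the ΔCTR peak, with a score of 4, can come from only 1 replicate. The FL peak was 42 nt wide and covered nt 35 to 76, with the start codon at nt 70 inside it, the ΔNTR peak began further upstream and was 58 nt wide, and the ΔCTR peak was 22 nt wide, at nt 42 to 63, wholly within the 5'UTR. Relative to FL the score was 0.706 in ΔNTR (0.308 to 1.57) and 0.235 in ΔCTR (0.0576 to 0.721). Only the second interval lies below 1, and the peaks compared differ in length, with a mean score per nt of 0.405 for FL, 0.207 for ΔNTR and 0.182 for ΔCTR. The FL peaks of both sites together covered 48 of the 69 nt, with 21 nt between them.

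How far the 5'UTR score of LARP6 stood below FL was read against the lists as wholes. In ΔNTR it was 0.607 of FL (0.312 to 1.15), beside 1.00 for all 5'UTR peaks and 0.904 for the whole list, and its interval holds both. In ΔCTR it was 0.321 of FL (0.133 to 0.701), below the 1.16 of the whole list. All 5'UTR peaks of ΔCTR together were also lower, at 0.680 of FL, and this value lies just inside the interval for LARP6. A lower score on LARP6 than on 5'UTRs in general was thus not resolved at this depth. Among 34 genes with a 5'UTR score of at least 20 in FL, a limit set after the values were seen and one that favours ratios below 1, the median ratio was 0.498 in ΔNTR and 0.554 in ΔCTR.

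LARP6 ranked high among the 5'UTRs that were bound. In FL, 22 of 508 coding genes with a 5'UTR peak had a higher 5'UTR score, and the median was 3. In ΔNTR 34 of 572 genes were higher and in ΔCTR 53 of 367. A peak near the cap was common among such genes: 42.4% of those expressed had a peak centred within 50 nt of the gene's annotated start in FL, 41.2% in ΔNTR and 41.9% in ΔCTR. Several peaks in one 5'UTR were less common, found in 91 of 505 genes in FL. Across the 3 lists 120 expressed genes had a 5'UTR peak in each, and in 21 of them, LARP6 among these, each list held at least 2.

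The 3'UTR of LARP6 held no peak in any of the 5 lists. Among all peaks in coding genes, the 3'UTR was the place of 49.3% for FL, 51.2% for ΔNTR and 52.5% for ΔCTR. Of the 120 genes above, 26 had no 3'UTR peak in any of these 3 lists. The remaining LARP6 peak, in the coding sequence at nt 899 to 915, was listed for FL alone with the minimum score of 3.

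Divided by transcript abundance, the score remained high on LARP6. Its whole-gene score per 1000 PE150 counts of the same line was 18.1 for FL, against 9.08 for ΔNTR and 6.44 for ΔCTR. The medians of coding genes with a peak were 3.57, 3.91 and 4.12, and 92.5%, 83.8% and 67.6% of those genes lay below LARP6. The PE150 counts of LARP6 were 1712, 1872 and 1398 in these lines, so the line with the largest count was not the one with the largest score. Whether reads from the introduced LARP6 contribute to the peak over the start codon was not tested.

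The 5'UTR of LARP6 was rich in G and C, at 79.7%, and contained 0 upstream ATG triplets. In windows of 31 nt around the peak centres, the GC content of both FL 5'UTR peaks was 80.6%, against a median of 67.7% over 651 FL 5'UTR peaks. A minimum free energy prediction with ViennaRNA for the 5'UTR and the 50 nt after it gave -70.5 kcal/mol and placed 72.5% of 5'UTR bases in pairs. The bases of the cap site were 76.9% paired and those under the ΔCTR peak 68.2%, so that neither site stood far from the 5'UTR around it. With 100 nt after the 5'UTR these shares were equal. For the 5'UTR alone 69.6% of bases were paired, 61.5% of those of the cap site and 68.2% of those under the ΔCTR peak. The cap site thus stood above the 5'UTR as a whole in the longer stretches and below it in this one. The fold is a prediction for bare RNA and not a measurement.

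Beyond LARP6, most of the score in the family fell on LARP1, its most abundant member, and 2 members had no peak. A peak was held by 5 of the 7 members in FL and ΔCTR, by 4 in ΔNTR and by 1 each in ΔLa-module and ΔNTD. Among the 11680 expressed coding genes the share was 38.6% for FL, 41.1% for ΔCTR, 39.4% for ΔNTR, 3.69% for ΔLa-module and 1.98% for ΔNTD. The share rises with level, so the count of members is not read as an excess. In FL it was 94.2% at 300 CPM or more, where LARP1 lies, and 80.1% at 100 to 300 CPM, with LARP4 and LARP4B. At 30 to 100 CPM, with LARP6, LARP7 and SSB, it was 46.8%, and at 10 to 30 CPM, with LARP1B, 19.6%. FL placed 19 peaks on the members (11.4 to 29.7), ΔNTR 20 (12.2 to 30.9) and ΔCTR 16 (9.15 to 26.0), with 1 in each of the other lists, and the summed scores were 137, 84, 115, 3 and 3. With peaks at the minimum score of 3 left out, 3 members in FL, 2 in ΔNTR and 3 in ΔCTR held a peak and none did in ΔLa-module or ΔNTD, against 21.7%, 21.5%, 25.2%, 0.711% and 0.265% of coding genes.

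LARP1 (ENSG00000155506, 5:154682986-154817605, plus strand) carried 10 peaks each in FL and ΔCTR, and 14 in ΔNTR. Its FL score summed to 87 (69.7 to 107), its ΔNTR score to 55 (41.4 to 71.6) and its ΔCTR score to 93 (75.1 to 114). ΔNTR thus had more peaks, over 365 nt against 276 nt in FL, and less score: its ratio to FL was 0.632 (0.443 to 0.896), with an upper bound just under the 0.904 of the whole list, while that of ΔCTR was 1.07 (0.789 to 1.45). The 3'UTR of LARP1, 3509 nt long, took 81 of the FL score, 49 of the ΔNTR score and 79 of the ΔCTR score, and its 5'UTR held no peak in any list.

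The score of LARP1 was concentrated at site 3, which spans nt 1493 to 1567 after the stop codon (5:154815589-154815663). FL scored 41 there, ΔNTR 11 and ΔCTR 36. The peak of FL was 73 nt wide and that of ΔCTR 64 nt, while in ΔNTR the site was split into peaks of 30 nt and 22 nt with scores of 8 and 3. The listed ΔNTR score was 0.268 of FL (0.124 to 0.532), beside 0.904 for the whole list, and the ΔCTR score was 0.878 of FL (0.545 to 1.41). Site 3 had the highest FL score in LARP1 and was named for its score, a choice that favours ratios to FL below 1. The ratio of the whole list, made up mostly of weak peaks, carries no such choice. These sums cover the peaks as called in each list, so that crosslinks outside them are not counted. The mean score per nt was 0.562 over the 73 nt covered by FL, 0.212 over the 52 nt of ΔNTR and 0.562 over the 64 nt of ΔCTR.

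Site 1 lay close to the stop codon, at nt 81 to 137 after it (5:154814177-154814233), and was the strongest ΔCTR site but one. FL scored 13 at this site, ΔNTR 6 and ΔCTR 25. Relative to FL this was 0.462 in ΔNTR (0.144 to 1.30) and 1.92 in ΔCTR (0.947 to 4.09), and both intervals include 1. Site 2 (5:154815545-154815583), just upstream of site 3, scored 10 in FL and was absent from the other 4 lists.

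The other LARP1 peaks were weak and rarely shared. Peaks that overlap by at least 1 nt formed 27 sites, of which 23 were in 1 list, 1 in 2 lists and 3 in 3 lists. The third of the sites found in all of FL, ΔNTR and ΔCTR (5:154815226-154815292) scored 5, 3 and 6. Sites of a single list numbered 6 for FL, 9 for ΔNTR and 6 for ΔCTR, and the highest ΔCTR one scored 8. ΔLa-module and ΔNTD each had 1 peak of score 3 in the LARP1 3'UTR, at nt centred 2890 and 3266 after the stop codon, and neither overlapped a peak of another list.

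**Figure D1:**
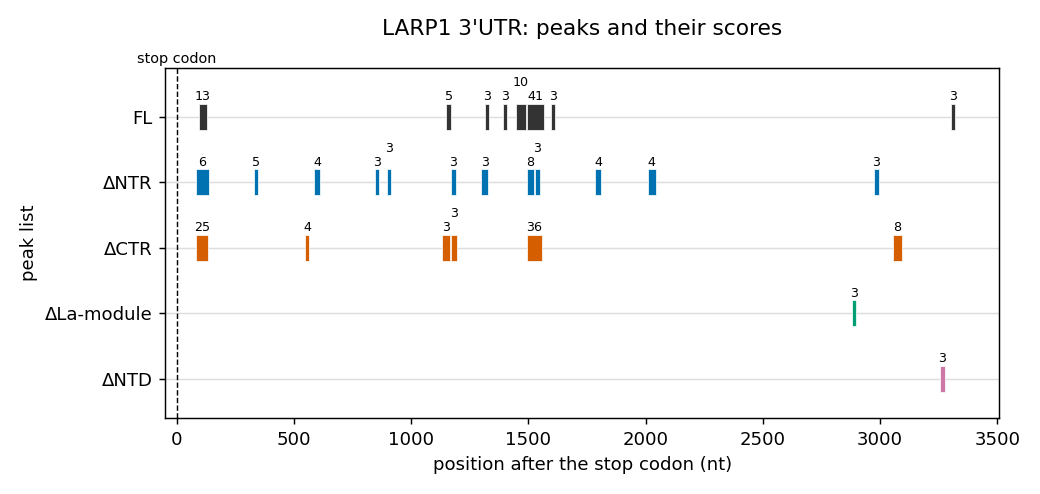
Peaks in the LARP1 3'UTR in the 5 pooled lists, by position after the stop codon in nt (x axis), with 1 row per list and the score above each peak. FL and ΔCTR have scores of 41 and 36 at site 3, where ΔNTR has 8 and 3, and the ΔNTR row shows more peaks, spread along the 3'UTR, with scores of at most 8.

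LARP4, which binds poly(A)-binding protein, had a summed score of 4 from FL, 9 from ΔNTR and 7 from ΔCTR. Its only shared site lay in the 3'UTR, nt 851 to 881 after the stop codon (12:50476715-50476745, plus strand), and scored 4 in FL and 3 in ΔNTR. The window around the FL peak centre was 77.4% pyrimidine, above the median of 51.6% over all FL peaks and 58.1% over the 19 FL peaks of the members. The paralogue LARP4B had 12 in FL, from 4 peaks of score 3, and 3 each in ΔNTR and ΔCTR, with no site in more than 1 list. The ratio of LARP4B to FL was 0.25 in both deletions (0.0453 to 0.926), an interval below 1 that rests on 4 FL peaks at the lowest score listed. For LARP4 it was 2.25 in ΔNTR (0.628 to 10.0) and 1.75 in ΔCTR (0.445 to 8.15), and both intervals include 1.

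LARP7, which holds the 7SK RNA, had a score of 3 in FL and 3 in ΔCTR, at different places, and 0 in ΔNTR. The centre of the FL peak fell on the first base of the start codon, and 6 of its 17 nt lay in the intron before that exon in the canonical transcript. LARP1B, a paralogue of LARP1, and SSB had no peak in any list. Both were expressed, at means of 23.2 and 94.9 CPM over the 6 lines. Among coding genes of 10 to 30 CPM 19.6% held an FL peak, so that a gene without a peak is common in the range of LARP1B. Among those of 30 to 100 CPM, where SSB, LARP6 and LARP7 lie, 46.8% did. SSB stood near the top of that range, and at 100 to 300 CPM the share was 80.1%, so that 46.8% may understate the share at its own level. Peaks with fewer than 3 counts in a replicate were not called, so that crosslinks spread thinly over the replicates would not have been listed. Nor would peaks that parental cells also had.

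**Figure D2:**
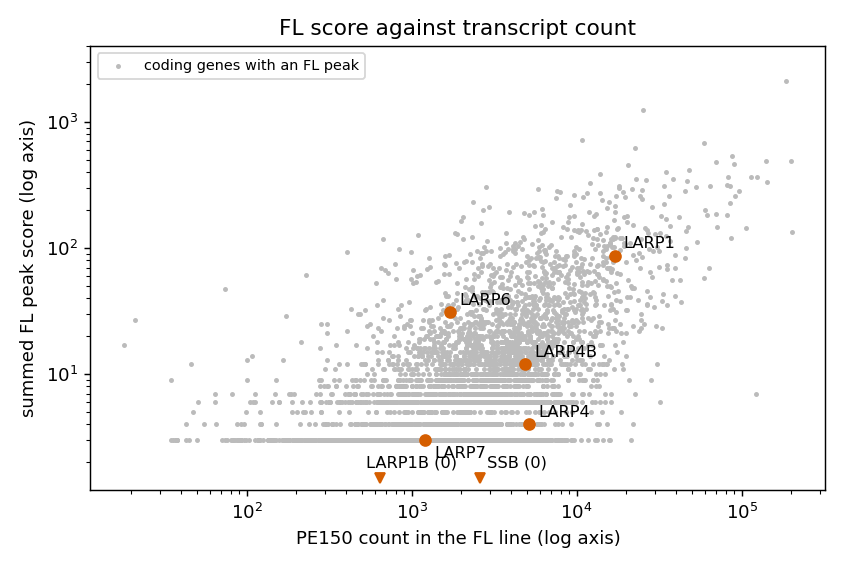
Summed FL peak score (y axis, log scale) against the PE150 count in the FL line (x axis, log scale) for coding genes with an FL peak (grey) and the family (orange). LARP6, at 1712 counts and a score of 31, lies in the upper part of the cloud for its count, and LARP4, at 5148 counts and a score of 4, in the lower part. Triangles for LARP1B and SSB stand for a score of 0, which a log axis cannot place.

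Across the family the peaks of the deletions met those of FL about as often as elsewhere. Of the 19 FL peaks, 7 were overlapped by a ΔNTR peak (36.8%, Wilson interval 19.2 to 59.0%), against 35.3% of all FL peaks. ΔCTR peaks overlapped 5 of the 19 (26.3%, 11.8 to 48.8%), against 37.9% of all. In all, the members had 43 sites, of which 36 were in 1 list and 5 in 3 lists, those 5 being the cap and start-codon sites of LARP6 and 3 sites of LARP1. No site in only 1 list scored above 10.

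The total RNA libraries showed how much of each mRNA the lines held. For LARP6 the parental library held 1435 counts, FL 1712, ΔNTR 1872, ΔCTR 1398, ΔLa-module 1619 and ΔNTD 1562. Scaled by TMM, its ratio to parental cells was highest for ΔNTR, at 1.40 (1.31 to 1.5), and 1.14 for FL (1.06 to 1.22). The other lines, ΔCTR with 0.964 (0.895 to 1.04), ΔLa-module with 1.06 (0.983 to 1.14) and ΔNTD with 1.06 (0.986 to 1.14), had intervals that include 1. The value for ΔNTR, 0.48 on the log2(CPM + 1) scale, was exceeded by 6.33% of the genes tested in that line. The introduced coding sequence was codon-optimised, so that LARP6 counts are no check of the labels, and with 1 library per line a difference between cultures cannot be told apart from one between lines. In bulk RNA, fewer cells with the mRNA and less of it per cell cannot be separated either.

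No member differed from parental cells by 2-fold or more in any line. Over all genes with at least 1 CPM in either library, the share that did was 0.0555% for FL, 0.0763% for ΔCTR, 0.326% for ΔNTD, 0.398% for ΔLa-module and 0.744% for ΔNTR. These shares depend on the pseudocount: with 0.1 CPM in place of 1 the genes numbered 118 in place of 8 for FL, 150 in place of 11 for ΔCTR, 264 in place of 47 for ΔNTD, 285 in place of 58 for ΔLa-module and 390 in place of 109 for ΔNTR. On the log2(CPM + 1) scale the median difference of the 7 members was 0.10 for FL, 0.03 for ΔCTR, 0.09 for ΔNTD, 0.11 for ΔLa-module and -0.01 for ΔNTR, while the medians of all genes lay between -0.0081 and -0.0028. Next to LARP6 the largest ratio belonged to SSB in ΔNTD, at 1.22 (1.15 to 1.28), followed by LARP4 in ΔNTD at 1.18 (1.14 to 1.23).

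Per length, LARP1 was the most abundant member, with a mean of 48.6 ± 0.932 CPM per kb of exon over all transcripts (SD over the 6 lines). LARP1B was the least abundant, with 2.42 ± 0.0952. The order between them depended on the length used. Over the exons of all transcripts, LARP4 had 21.8 ± 1.67, SSB 18.8 ± 1.36, LARP6 10.6 ± 1.52, LARP4B 10.3 ± 0.515 and LARP7 5.10 ± 0.353, and the ranges over the lines overlapped for LARP4 with SSB and for LARP6 with LARP4B. Over the canonical transcript, SSB had 57.5 ± 4.16, LARP4B 29.5 ± 1.47, LARP4 27.5 ± 2.10, LARP7 19.6 ± 1.36 and LARP6 13.2 ± 1.88, with overlap only between LARP4B and LARP4, while LARP1 with 82.8 ± 1.59 and LARP1B with 4.78 ± 0.188 kept their places. LARP6 varied most among the lines, by 0.53 on the log2(CPM + 1) scale between ΔNTR and ΔCTR, a range larger than that of 88.2% of coding genes. LARP1 varied by 0.07, and 0.805% of coding genes had a smaller range. The levels of SSB and LARP7 rest on the strand of the reads: METTL5 overlaps SSB and the host gene of the miR-302 cluster overlaps LARP7 on the opposite strand, and without strand the counts were 1256 to 1646 for SSB and 423 to 554 for LARP7, in place of 2240 to 2877 and 945 to 1269. LARP6 is overlapped by LRRC49 on the opposite strand (mean of 14.3 CPM) and by a long noncoding RNA gene on the same strand (0.647 CPM). Whether the same-strand overlap lowers the LARP6 counts was not tested.

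**Figure D3:**
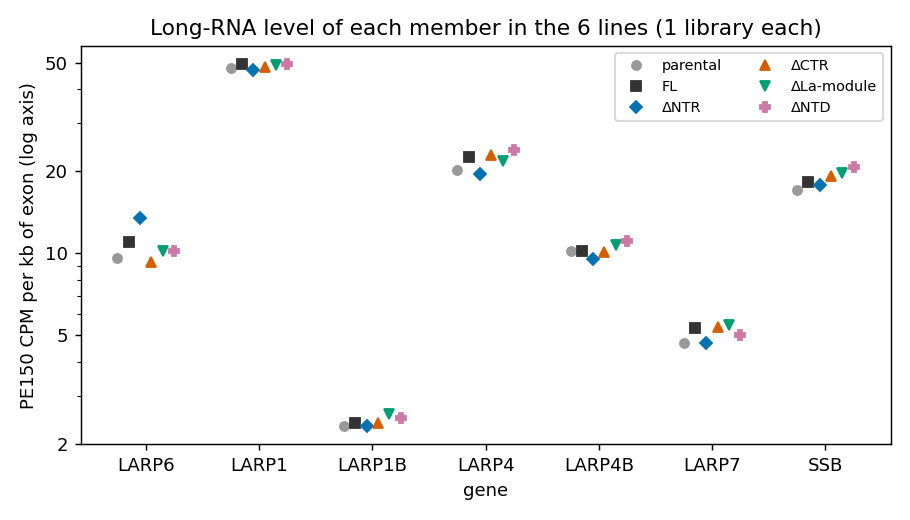
PE150 level in CPM per kb of exon (y axis, log scale) of the 7 genes (x axis) in the 6 lines, 1 library and 1 symbol each. LARP1 lies highest and LARP1B lowest, and the ΔNTR symbol of LARP6, at 13.5, stands above the other 5.

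The genes whose level over the 6 lines was most like that of LARP6 were KCMF1 (Pearson r of 0.991), ZNF598 (0.988), RRBP1 (0.988), COPRS (0.988) and MTA1 (0.986), the highest of 9095 coding genes with at least 10 CPM. These values describe 6 libraries in which ΔNTR stood apart for LARP6. The other 6 members had coefficients of -0.58 to -0.25.

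Among 17 genes whose proteins are known to work with a family member, 11 held a peak in FL and ΔNTR, 13 in ΔCTR and 4 each in ΔLa-module and ΔNTD, beside 38.6%, 39.4%, 41.1%, 3.69% and 1.98% of coding genes for FL, ΔNTR, ΔCTR, ΔLa-module and ΔNTD. Many of the partners are abundant: 9 of the 17 had a mean of at least 100 CPM and 5 of at least 300 CPM, where 80.1% (100 to 300 CPM) and 94.2% (300 CPM or more) of coding genes held an FL peak. In total RNA 0 of the 17 differed by 2-fold in any line. The lowest of them, EIF4A1 and MYH10, had means of only 7.1 and 1.2 CPM, where the pseudocount of 1 CPM shrinks differences. VIM, the intermediate filament protein that holds LARP6-bound collagen mRNAs, had a score of 489 for FL, 435 for ΔNTR and 346 for ΔCTR. RACK1, the ribosomal scaffold that LARP4 and LARP4B bind, scored 167, 117 and 161. The poly(A)-binding protein genes PABPC1, with 113, 68 and 133, and PABPC4, with 62, 66 and 79, were also bound in all of these lists. MTOR, the kinase upstream of LARP1, scored 33 from 9 peaks in FL, 19 from 6 in ΔNTR and 3 from 1 in ΔCTR, all of the FL score in the coding sequence. The partners were listed by name, and nothing is read from their counts beyond these values.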

How the data were processed

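As the study's methods state, the authors trimmed iCLIP reads, removed those on rRNA and tRNA with Bowtie 2, aligned the rest with STAR to GRCh38 with GENCODE release 42 and removed PCR duplicates with UMI-tools. Peaks were called per replicate with Clippy, merged over 3 replicates with summed scores, and parental peaks were subtracted with bedtools 2.30.0. The deposited score is this sum, unscaled for depth, and how deeply the iCLIP libraries were sequenced is unknown here. The deposited PE150 counts per gene came from STAR 2.7.10b after Trim Galore 0.6.10, and the reverse column was used, whose total was 8.76 to 9.71 times the forward one. The small-RNA libraries were not used here.

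Peaks were assigned by their centre with GENCODE release 44 on the same build (CDS before 5'UTR before 3'UTR). Score intervals are exact Poisson, ratios exact binomial, shares Wilson. Score per 1000 counts is the summed score over the PE150 count. Counts were scaled with edgeR 4.0.16 (TMM), with a pseudocount of 1 CPM. Structures were predicted with ViennaRNA 2.7.2. PE150 counts can hold several reads of 1 molecule, so that intervals are minimum errors. Named were the 7 members, every LARP6 peak, sites scoring at least 10 in the other members, the 5 partners with the highest FL score and the 5 genes most like LARP6. The remaining LARP1 sites and the LARP4 and LARP7 sites with a sequence were chosen after their values were seen. Members and lists were chosen with earlier results of these data known. The fold calls were tested on simulated counts, and the region assignment on annotated positions with a known answer. Alternatives are given in the closing section.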

Additional observations from a re-analysis of the deposited data

How the results depend on the processing

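Of 314 values recomputed under another setting, 289 kept their size within counting error or within 1.5 times and 25 moved, 7 of them the levels per kb when taken over the canonical transcript, an alternative chosen after seeing the data. Some of the 289 could not move: FL scores scaled to the FL total are the same by definition, and scores of 0 stay 0. With low scores counting error is wide. The LARP7 score per 1000 counts went from 2.473 to 5.825 in FL and from 2.542 to 5.693 in ΔCTR with unstranded counts, and was counted as kept. With peaks of score 3 left out, the members with a peak were 3 in FL and ΔCTR, 2 in ΔNTR and 0 in both ΔLa-module and ΔNTD, and their peaks were 7 for FL, 8 for ΔNTR, 9 for ΔCTR and 0 for the others. FL peaks of the members overlapped by ΔNTR numbered 4 when 50% of both peaks had to overlap. With a pseudocount of 0.1 CPM, an alternative chosen after seeing the data, as were the other scalings and the unstranded counts for this result, genes at least 2-fold different numbered 118 for FL, 150 for ΔCTR, 264 for ΔNTD, 285 for ΔLa-module and 390 for ΔNTR, by construction since low genes then weigh more. All 140 recomputed log2 differences of the members stayed within their counting intervals, and 3 of them changed sign: LARP1 in ΔNTR (-0.02 to 0.0018) and LARP7 in ΔNTD (0.09 to -0.02) with unstranded counts, and LARP1B in ΔNTR (0.007 to -0.0022) without TMM. Scaled to the FL total, the single LARP1 peaks of ΔLa-module and ΔNTD became 133 and 309, above the 87 of FL rather than below it, from a score of 3 each. The 5'UTR sums of LARP6 were the same with 1 transcript per gene.

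No paired analysis was possible because the peak lists pool the replicates and the PE150 libraries are 1 per line. No fit without one of the replicates was run, since none can be separated. Peaks with fewer than 3 counts in a replicate are not listed, so that weak binding of LARP1B and SSB is not measured.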
